A study of Drosophila eugracilis and Drosophila pseudoobscura and Drosophila bifasciata with 4 samples.

Results

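Long constitutive introns were described in the ovaries of 3 Drosophila species, D. pseudoobscura, D. eugracilis and D. bifasciata. In each polyA library an intron was a gap between the aligned blocks of a read pair, counted once per pair, and its strand was the one with more pairs. An intron was a member when it was 1000 to 20000 nt long, was crossed by 10 or more pairs of its strand and shared neither its start nor its end with any other intron of 10 or more pairs in the same library. This gave 5721 long constitutive introns among 55213 introns of 10 or more pairs, namely 2184 of 20163 for D. pseudoobscura, 1473 of 14782 for D. eugracilis and 2064 of 20268 for D. bifasciata. The main set they were compared with was the 44961 constitutive introns from 40 nt to under 1000 nt, called shorter introns here.

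The study examined how piRNAs, the small RNAs by which PIWI proteins find transposons, are made in different Drosophila species, and the polyA libraries gave its view of spliced transcripts and gene expression in the ovary. Each species had 1 polyA library, made from ovaries of wild type females kept on standard food at room temperature, with a directional kit that keeps the strand of the RNA. The strain labels were MV2-25 for D. pseudoobscura, SHL12 for D. eugracilis and Jozankei, Hokaidou for D. bifasciata, and the methods of the study name other stocks. A 3′ end library (QuantSeq) of the same D. eugracilis strain was read beside the polyA library. The labels give an age of 2 to 7 days and the protocol one of 3 to 7 days. No group was treated and none had a replicate, so species and library cannot be told apart and no test between species was made. Intervals are exact 95% intervals that cover counting error only, because PCR reads are not independent molecules. Introns of 1 library are not replicates of a species. The tissue was not checked against marker genes, because the gene table used here carries no common gene names.

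An intron is the part of a transcript that the spliceosome removes between 2 exons. Long introns in flies often lie near the 5′ ends of genes, where they can hold regulatory elements and alternative start sites. They can also hold whole nested genes, which may be transcribed in the direction of the host or against it, and small nucleolar RNAs that are cut out of the removed intron. Because polyA selection favours mature transcripts, reads inside an intron can come from a nested gene, from an exon that is used rarely or from RNA that was not yet spliced.

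The polyA files held 7082759 read pairs for D. pseudoobscura, 6551749 for D. eugracilis and 6994057 for D. bifasciata, all mapped to a single place in the genome. The different introns numbered 47048, 39029 and 42923 in the same order of species. Members lay on 97 contigs of D. pseudoobscura, 102 of D. eugracilis and 20 of D. bifasciata. They made up 10.8% of the introns of 10 or more pairs for D. pseudoobscura, 9.96% for D. eugracilis and 10.2% for D. bifasciata. Among introns of 1000 to 20000 nt with 10 or more pairs, the requirement of unshared ends kept 78.2% (76.6 to 79.7) for D. pseudoobscura, 84.03% (82.2 to 85.7) for D. eugracilis and 81.4% (79.8 to 82.9) for D. bifasciata.

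Length and pair count chose the members and are given as a description only. The median length was 2870.5 nt (2724 to 3085) for D. pseudoobscura, 2537 nt (2389 to 2722) for D. eugracilis and 3047 nt (2865 to 3225) for D. bifasciata. The shorter introns had medians of 67, 65 and 67 nt, so the 2 sets lie far apart in length and most fly introns fall in the shorter one. From the 25th to the 75th percentile members ran over 1605 to 6445 nt for D. pseudoobscura, 1532 to 5232 nt for D. eugracilis and 1606 to 6319 nt for D. bifasciata. Together they covered 10.4 Mb, 6.22 Mb and 9.88 Mb. The longest member of each species was 19989, 19791 and 19995 nt, and 243, 186 and 285 introns of 10 or more pairs exceeded the upper limit and were left out. Just outside the limits of the rule lay constitutive introns of 998 nt in all 3 species, and of 20006 nt for D. pseudoobscura, 20240 nt for D. eugracilis and 20031 nt for D. bifasciata. At the pair minimum, 88, 90 and 82 long introns had exactly 10 pairs, while 85, 90 and 104 had 9 and would otherwise have qualified.

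Most members were spliced in few read pairs. The median was 29 pairs for D. pseudoobscura (4.09 counts per 1000000 pairs, CPM), 25 for D. eugracilis (3.82 CPM) and 27 for D. bifasciata (3.86 CPM), against 30 (4.24 CPM), 28 (4.27 CPM) and 36 (5.15 CPM) for the shorter introns of the same libraries. Only 8.61% of members for D. pseudoobscura, 11.9% for D. eugracilis and 9.25% for D. bifasciata reached 100 pairs. The 10 members with most pairs held 11.1% of all pairs across members for D. pseudoobscura, 30.7% for D. eugracilis and 14.8% for D. bifasciata, so the D. eugracilis total leaned most on a few introns. Over the members of a library, length and pair count were weakly related, with a Spearman rho of -0.06 for D. pseudoobscura (n = 2184 introns), -0.08 for D. eugracilis (n = 1473) and -0.14 for D. bifasciata (n = 2064). These introns share a library and are not independent. In bulk tissue, fewer cells that make a transcript and less of it per cell cannot be told apart.

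**Figure D1:**
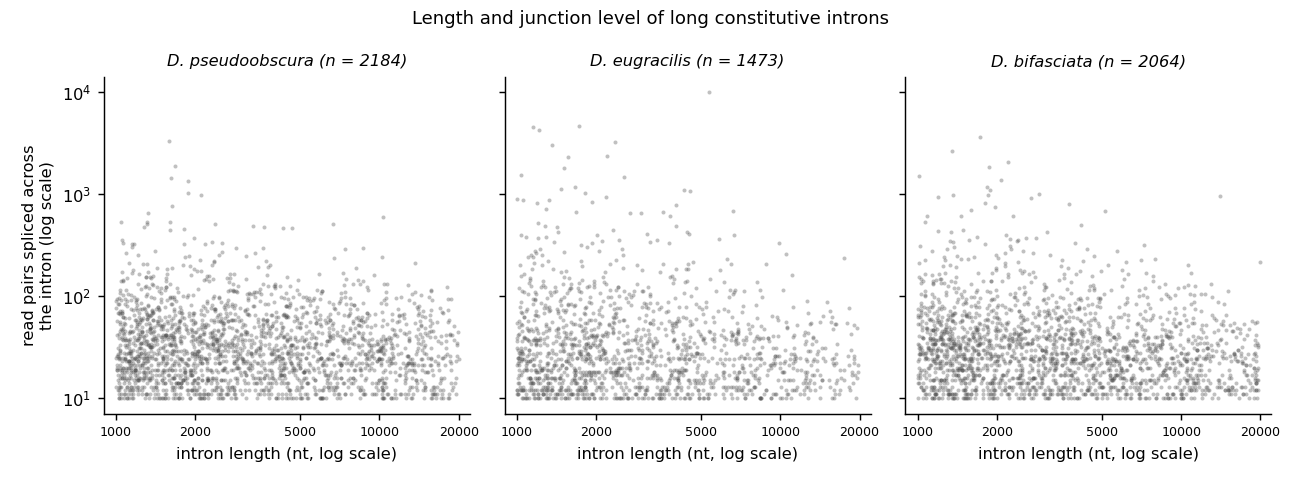
Each point is 1 long constitutive intron, with its length in nt on the horizontal axis and the read pairs spliced across it on the vertical axis, both on log scales, 1 panel per species. Most points lie low, around medians of 29, 25 and 27 pairs, at every length, and the highest point is the D. eugracilis intron with 9798 pairs.

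The most used long intron lay on contig NW_024573053.1 of D. eugracilis, from 120911 to 126270 on the minus strand. Its 5360 nt were spliced out of 9798 pairs (1495 CPM), against the 4611 pairs of the next member, while 16 sense pairs and 0 antisense pairs lay inside. No alignment ran unspliced over either of its ends, so almost all of the RNA seen at this place was spliced. The next in D. eugracilis, at 776724 to 778449 of NW_024572623.1 in LOC108111355, was 1726 nt long and enclosed 7 annotated small nucleolar RNAs, which guide the chemical modification of ribosomal RNA in eukaryotes. Its 21 sense pairs inside, beside 4611 spliced pairs, contained no nested unit as defined further on. The other three leading members of D. eugracilis had 4499, 4199 and 3185 pairs and between 2 and 7 sense pairs inside. In D. bifasciata the leading member had 3582 pairs (CM019044.1, 36868969 to 36870689) and 2 sense pairs inside. In D. pseudoobscura it had 3313 pairs (utg000079l, 2755038 to 2756622) and 44 sense pairs inside, all of them in 2 small sense units. An exception in level inside was the fourth member of D. pseudoobscura (utg000091l, 189260 to 191133), with 1331 spliced pairs and 2416 sense pairs inside, and likewise the fourth of D. bifasciata (CM019041.1, 7011591 to 7013463), with 1822 spliced pairs and 1210 inside.

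The label constitutive holds only above the minimum of 10 pairs. A competing intron of 1 to 9 pairs used the start or the end of 47.1% of members for D. pseudoobscura (45.0 to 49.2), 35.8% for D. eugracilis (33.4 to 38.4) and 37.9% for D. bifasciata (35.8 to 40.02), against 11.3% (10.8 to 11.8), 10.8% (10.2 to 11.4) and 10.7% (10.2 to 11.2) of the shorter introns. Rare competing introns at an end were thus seen more than 3 times as often at long introns in each of the libraries. A single pair of either strand was enough, and whether such gaps are alternative splicing or mapping errors was not tested. In pairs their share remained small. Competitors took 3.85% of the spliced pairs at the ends of members for D. pseudoobscura, 1.56% for D. eugracilis and 3.08% for D. bifasciata, against 0.527%, 0.256% and 0.381% at the shorter introns.

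Members differed from shorter introns in their place within transcripts. A neighbour was another intron of 10 or more pairs on the same strand whose near end lay within 2000 nt. Upstream, 58.8% of members in D. pseudoobscura (56.7 to 60.9) had a neighbour, against 74.3% (73.6 to 74.96) of the shorter introns and 72.5% of all constitutive introns of 40 to 20000 nt. The same values were 51.6% (49.01 to 54.2) against 68.7% (67.8 to 69.5) and 66.8% in D. eugracilis, and 57.4% (55.2 to 59.5) against 73.6% (72.9 to 74.3) and 71.8% in D. bifasciata. Downstream the order was the other way round. There a neighbour followed 79.9% of members in D. pseudoobscura (78.2 to 81.6) against 70.2% (69.5 to 70.9) of shorter and 71.3% of all constitutive introns. In D. eugracilis it was 74.6% (72.3 to 76.8) against 65.1% (64.3 to 66.0) and 66.1%, and in D. bifasciata 77.2% (75.4 to 79.02) against 69.7% (69.0 to 70.4) and 70.5%. In every species long introns lacked an upstream neighbour more often, and a downstream neighbour less often, than shorter introns, by more than the intervals.

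An intron with a downstream but no upstream neighbour was called first, and one with the reverse last. First introns made up 32.7% of members for D. pseudoobscura (30.7 to 34.7), 36.5% for D. eugracilis (34.0 to 39.0) and 32.3% for D. bifasciata (30.3 to 34.4), against 17.7% (17.2 to 18.3), 20.8% (20.05 to 21.5) and 18.5% (17.9 to 19.1) of shorter introns. Last introns made up 11.6%, 13.4% and 12.5% of members, against 21.8%, 24.3% and 22.5% of shorter introns. Read from the other side, 19.8% of the first constitutive introns of D. pseudoobscura were long, 17.5% in D. eugracilis and 17.9% in D. bifasciata, whereas among last introns 6.66%, 6.27% and 6.49% were long. Within the members the share of first introns had no steady order with length. It was highest at 5000 to 10000 nt, with 38.9% for D. pseudoobscura, 43.5% for D. eugracilis and 33.6% for D. bifasciata, and 31.9%, 38.4% and 29.7% at 10000 to 20000 nt, and the intervals of these 2 classes overlapped in each species. The window sets the level of these shares but not their order. First introns were 32.9%, 37.6% and 32.2% of members within 1000 nt, against 19.97%, 21.8% and 20.9% of shorter introns, and 26.7%, 30.7% and 26.1% within 5000 nt, against 14.6%, 17.7% and 14.7%.

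**Figure D2:**
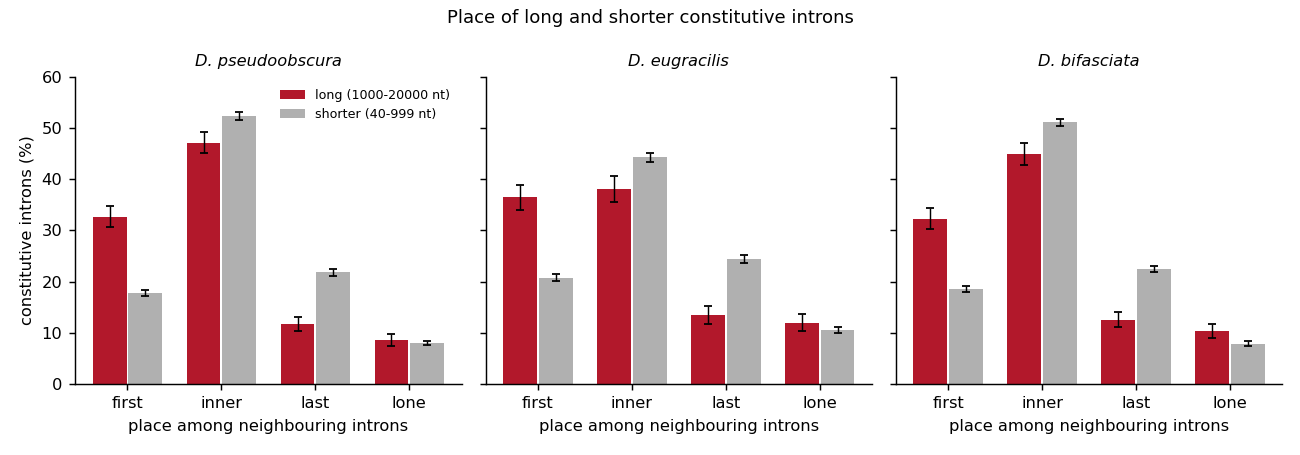
Bars give the share of constitutive introns in % that were first, inner, last or lone among introns of 10 or more pairs within 2000 nt, for long introns (red) and shorter introns (grey), with exact 95% intervals, 1 panel per species. In each panel the long bar is higher for first introns, at 32.3% to 36.5%, and lower for last introns, at 11.6% to 13.4%.

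For D. eugracilis the gene table gave a view of place that needs no neighbouring intron. The table holds gene starts and ends without contig or strand, and 41 stretches of it, with 13353 of 15386 genes, could be placed on contigs through the introns themselves. Of the 1473 members 1308 lay on such contigs, and 97.2% of these (96.1 to 98.0) lay inside an annotated gene, a share that is partly built in because introns placed the genes. The 1244 members inside exactly 1 gene lay in 934 genes, of which 223 held 2 or more. These members started a median of 1076 nt (946 to 1244) behind the 5′ edge of their gene and ended 3081 nt (2914 to 3280) before its 3′ edge. The 10778 shorter introns inside exactly 1 gene lay nearly in the middle, 1385 nt (1340 to 1435) behind the 5′ edge and 1363 nt (1334 to 1395) before the 3′ edge. An end within 1000 nt of the 3′ edge was found in 9.57% of members (7.99 to 11.3) and in 36.5% of shorter introns (35.6 to 37.4). The gene with most members was LOC108116869 on NW_024573278.1, with 6 introns of 1899 to 7275 nt that carried 11 to 39 pairs each. All 6 were inner introns, and 0 read pairs of either strand lay inside any of them.

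The number of read pairs inside the introns differed between the libraries. Pairs were counted when their whole span lay at least 50 nt inside both ends. No pair at all lay inside 12.6% of members for D. pseudoobscura (11.3 to 14.1), 44.9% for D. eugracilis (42.3 to 47.5) and 28.9% for D. bifasciata (27.0 to 30.9). The median member held 5 sense pairs (5 to 6) for D. pseudoobscura, 1 (0 to 1) for D. eugracilis and 2 (2 to 3) for D. bifasciata, and 0 antisense pairs in each. Members with more sense than antisense pairs were 81.2%, 44.9% and 62.4% of all, and members with more antisense than sense pairs were 4.35%, 9.10% and 7.46%. Members with mostly sense reads therefore outnumbered those with mostly antisense reads in each library, and in D. eugracilis they were about as many as the members without any pair inside.

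In all, 74777 sense and 23929 antisense pairs lay inside members of D. pseudoobscura, 279604 and 32539 in D. eugracilis and 145500 and 33675 in D. bifasciata. A pair inside 2 overlapping members counts in each. The antisense share was 24.2% for D. pseudoobscura (24.0 to 24.5), 10.4% for D. eugracilis (10.3 to 10.5) and 18.8% for D. bifasciata (18.6 to 19.0). Pairs of the minor strand at the junctions of the same members, which show how often the strand of a read is wrong or an antisense junction coincides, were 1.5%, 0.368% and 0.820% of the spliced pairs. The antisense share inside was thus over 10 times the minor-strand share in each library. The strand of a member was the one with more junction pairs, so this choice holds the minor-strand share low. In the D. pseudoobscura member at 473798 to 493749 of utg000095l, only 45 of 82 pairs were of its strand, so sense and antisense are hardly defined there. A high antisense share was not a property of the typical intron, however. The 10 members with most antisense pairs held 49.1% of them for D. pseudoobscura, 72.4% for D. eugracilis and 69.5% for D. bifasciata, and the 10 with most sense pairs held 33.0%, 93.2% and 78.3% of the sense pairs. When the members whose ends were more than 50% unspliced were left out, the antisense share became 31.0% (30.7 to 31.3), 45.0% (44.5 to 45.5) and 26.8% (26.5 to 27.2), and the order of the species changed.

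**Figure D3:**
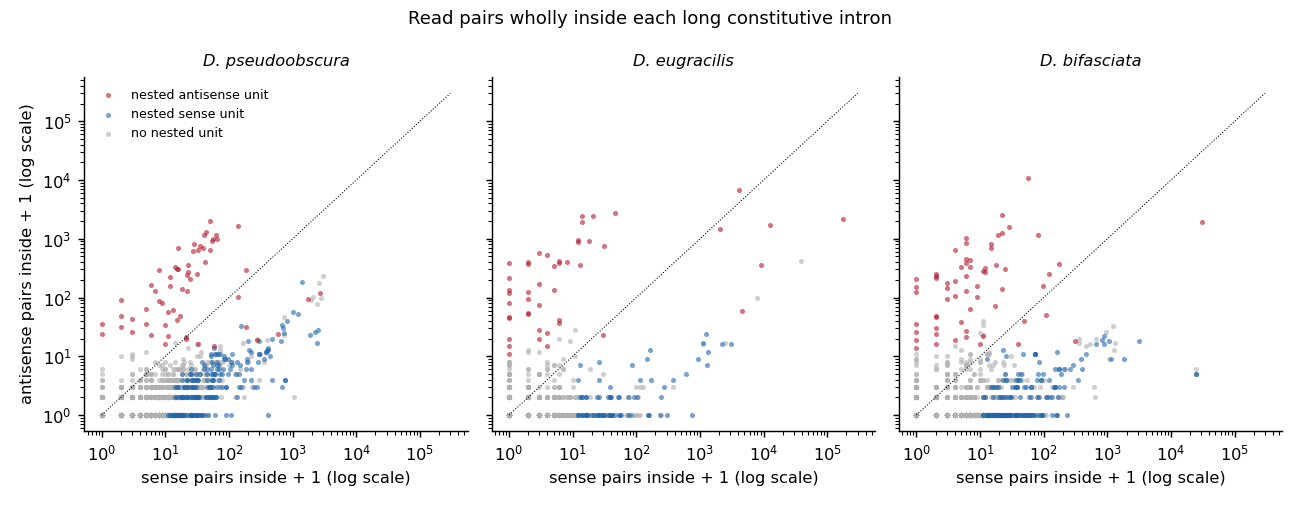
Each point is 1 long constitutive intron, with the sense pairs wholly inside it plus 1 on the horizontal axis and the antisense pairs plus 1 on the vertical axis, both on log scales, and the dotted line marks equal numbers. Introns with a nested antisense unit (red) lie mostly above the line and up to 10992 antisense pairs, and those with a nested sense unit (blue) lie along the lower edge.

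Members without any island of reads gave a measure of the diffuse signal. These 1843 introns of D. pseudoobscura, 1316 of D. eugracilis and 1744 of D. bifasciata held no nested unit, no island at an edge and no inner intron. Per kb of intron where a pair could lie, their median sense level was 0.167 CPM (0.158 to 0.176) for D. pseudoobscura, 0 CPM for D. eugracilis and 0.0633 CPM (0.0529 to 0.0736) for D. bifasciata. In D. pseudoobscura this median per kb did not change with length beyond its interval, with 0.164 CPM per kb at 1000 to 2000 nt, 0.179 at 2000 to 5000 nt, 0.158 at 5000 to 10000 nt and 0.168 at 10000 to 20000 nt. In the other two the median did not grow with length either, since D. bifasciata had 0.0851 CPM per kb in the shortest and 0.0520 in the longest class. Pooled over introns, the sense level was lower in the longest than in the shortest class. It was 0.191 against 0.287 CPM per kb for D. pseudoobscura, 0.0169 against 0.149 for D. eugracilis and 0.0787 against 0.241 for D. bifasciata. Introns with islands were left out, which limits the level that can be seen. Antisense pairs were 8.57% (8.10 to 9.07) of the pairs in these members for D. pseudoobscura, 18.9% (17.3 to 20.5) for D. eugracilis and 11.4% (10.6 to 12.1) for D. bifasciata. In introns of 500 to 1000 nt without islands they were 8.59%, 6.91% and 6.13%. By length the D. eugracilis share was 9.24% at 1000 to 2000 nt, 20.1% at 2000 to 5000 nt, 15.7% at 5000 to 10000 nt and 39.8% at 10000 to 20000 nt, the last from 131 antisense and 198 sense pairs. Across all members, the sense pairs inside followed length with a Spearman rho of 0.56 for D. pseudoobscura, 0.09 for D. eugracilis and 0.30 for D. bifasciata, with longer introns having more room for pairs.

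A nested antisense unit was an island of 10 or more antisense pairs wholly inside the intron, joined over gaps of up to 100 nt, in whose span at least 80% of the pairs were antisense. Such a unit lay in 61 members of D. pseudoobscura, 2.79% of them (2.14 to 3.57), against 0.0306% (0.00995 to 0.0715) of the shorter introns and 0.357% of all constitutive introns of 40 to 20000 nt. It lay in 47 members of D. eugracilis, 3.19% (2.35 to 4.22), against 0.0739% (0.0338 to 0.140) of the shorter and 0.41% of all constitutive introns. In D. bifasciata it lay in 62 members, 3.00% (2.31 to 3.83), against 0.0364% (0.0134 to 0.0793) and 0.367%. The 3 shares of members overlapped in their intervals. Most shorter introns have no room for a unit, so introns of 500 to 1000 nt are the nearer comparison, and 0.542% (0.176 to 1.26), 0.854% (0.344 to 1.75) and 0.764% (0.281 to 1.66) of those held one.

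Per length of intron, long introns did not hold more antisense units. They held 6.44 antisense units per Mb for D. pseudoobscura, 9.32 for D. eugracilis and 7.79 for D. bifasciata, against 7.49, 12.2 and 10.5 per Mb of introns of 500 to 1000 nt, where 5 to 7 introns per species held one. Within the members, the share with an antisense unit was 1.30% at 1000 to 2000 nt for D. pseudoobscura, 1.02% for D. eugracilis and 1.26% for D. bifasciata. At 10000 to 20000 nt it was 4.89%, 6.62% and 5.38%, so the longest class held units more often than the shortest in each library, beyond the intervals. Between them the order was not steady, since D. bifasciata had 4.22% at 2000 to 5000 nt and 2.36% at 5000 to 10000 nt. The hosts had a median length of 4453 nt (3371 to 5969), 5865 nt (3871 to 8051) and 4239 nt (2992 to 5500).

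**Figure D4:**
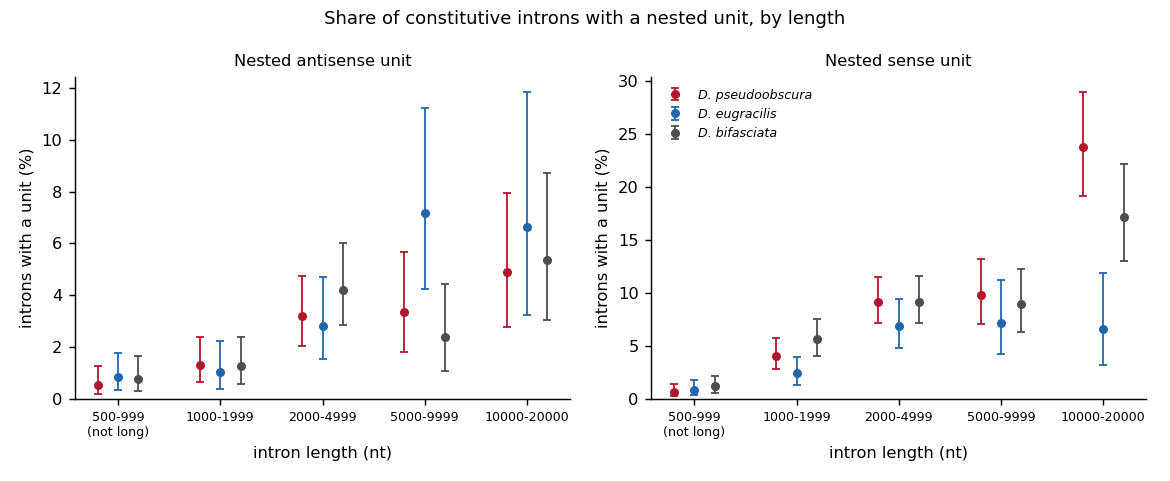
Points give the share of constitutive introns in % that held a nested antisense unit (left) or a nested sense unit (right), by intron length in nt and species, with exact 95% intervals. Both shares are lowest at 500 to 1000 nt and at 1000 to 2000 nt, and the highest point is the 23.8% of D. pseudoobscura introns of 10000 to 20000 nt with a sense unit.

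The antisense units were mostly over 1000 nt long, and many were spliced. There were 67, 58 and 77 of them, with a median length of 1411 nt (980 to 1866) for D. pseudoobscura, 1074 nt (834 to 1717) for D. eugracilis and 1405 nt (1041 to 1794) for D. bifasciata. An intron of 10 or more pairs of their own lay in 35.8% (24.5 to 48.5), 43.1% (30.2 to 56.8) and 37.7% (26.9 to 49.4) of the units. Spliced pairs joined 29.9%, 29.3% and 37.7% of them to bases outside the host, counting a single pair as a join. The others showed no spliced join. Unspliced antisense pairs that run out of the host were not assigned to units, so confinement to the host is not shown. The middles of all antisense units lay at a median of 49.0%, 48.1% and 49.1% of the host from its 5′ end. The units took in 84.3%, 93.7% and 94.0% of all antisense pairs inside members.

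In most hosts the antisense units held more pairs than the host junction. This was so in 41 of 61 hosts for D. pseudoobscura, 37 of 47 for D. eugracilis and 49 of 62 for D. bifasciata. A unit collects pairs over its whole length, whereas the junction counts only pairs spliced across the intron. The excess is thus partly built in and does not compare RNA levels. The hosts themselves were not high, with medians of 24, 18 and 29.5 spliced pairs. The unit with most pairs among the hosts that were mostly spliced lay in D. bifasciata, in the intron at 12370225 to 12375062 of CM019042.1. Its 33 spliced pairs stood beside an antisense unit of 2579 pairs, 3854 nt long and with 6 introns of its own, while 21 sense pairs lay in the whole host. In D. eugracilis the intron of LOC108118465 at 2274016 to 2278333 of NW_024571981.1 had 19 spliced pairs and an antisense unit of 2429 pairs. That unit was 3896 nt long, had 6 introns of its own and overlapped the annotated gene LOC108118462. The intron of LOC108102989 at 325962 to 327077 of NW_024573037.1 was 1116 nt long with 10 spliced pairs, and its unit of 2414 pairs overlapped LOC108102990. In LOC108102997 (NW_024572029.1, 455172 to 459042) a pair of units with 1740 and 204 pairs overlapped LOC108102998 and LOC108102999.

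In D. pseudoobscura the 5 leading hosts had antisense units of 1986, 1645, 1301, 1175 and 1167 pairs beside 109, 91, 19, 15 and 10 spliced pairs. The largest was the intron at 1582438 to 1585317 of utg000074l, which was 2880 nt long and held a unit of 1278 nt with 1 intron of its own. Here 253 pairs joined the unit to bases outside the host, so spliced antisense RNA reached beyond the host. A host of D. bifasciata had the same length of 2880 nt (CM019042.1, 44319591 to 44322470). It had 988 spliced pairs and a unit of 1240 pairs and 1308 nt, with 1 intron of its own and 243 joining pairs. Whether these 2 introns are orthologous was not tested. At 911955 to 931745 of NW_024572029.1 the longest member of D. eugracilis, in LOC108102925, held 4 antisense units of 16, 19, 52 and 44 pairs that all overlapped LOC108102931, beside 21 spliced and 0 sense pairs.

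**Figure D5:**
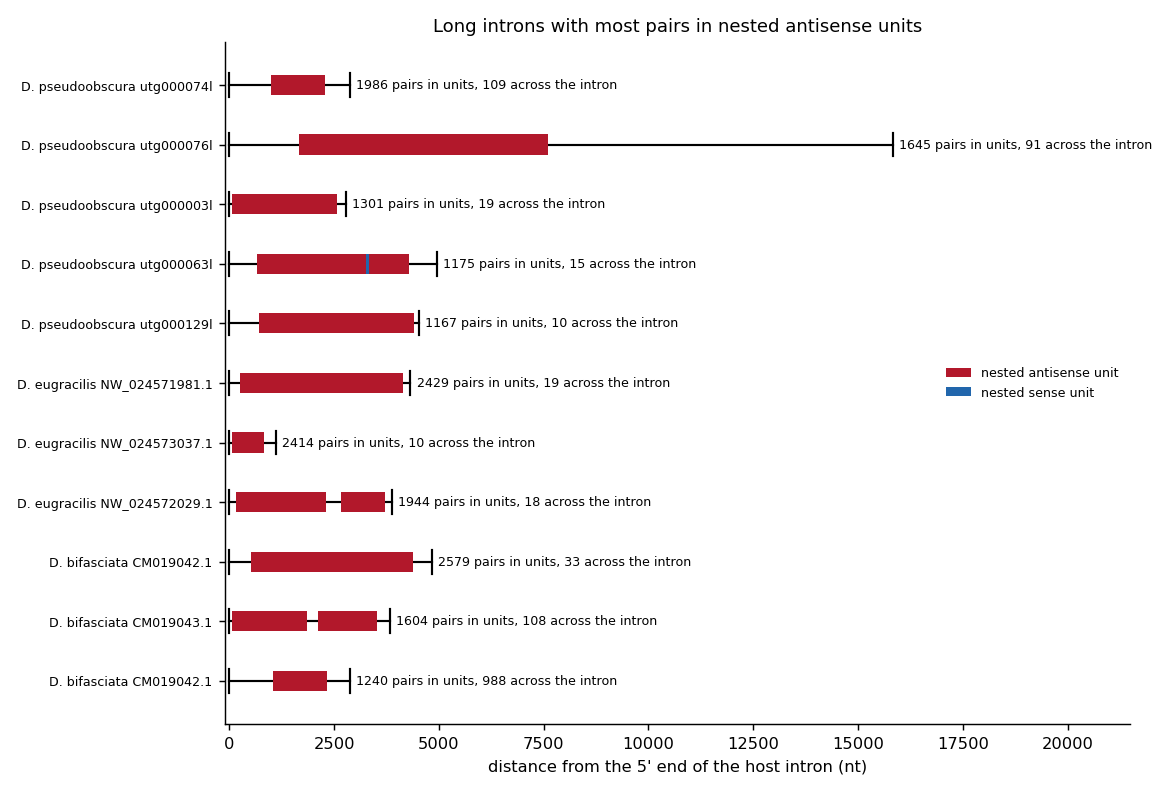
Horizontal lines are host introns drawn to scale from their 5′ end in nt, and bars are nested antisense (red) and sense (blue) units, for those of the 5 hosts per species with most antisense unit pairs that were at most 50% unspliced and not crossed by another intron. Units fill most of the host in several cases, and the pairs in units exceed the pairs across the intron in all 11 hosts, from 1167 against 10 to 1240 against 988. Hosts were chosen by unit pairs, and units collect pairs over their whole length, so the excess is partly built in.

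Nested sense units were defined in the same way on the strand of the host and had to keep 100 nt from both ends. They lay in 208 members of D. pseudoobscura, 9.52% (8.32 to 10.8), against 0.0368% (0.0135 to 0.0800) of the shorter introns and 1.16% of all constitutive introns of 40 to 20000 nt. In D. eugracilis they lay in 75, 5.09% (4.03 to 6.34), against 0.0575% (0.0231 to 0.118) and 0.601%, and in D. bifasciata in 185, 8.96% (7.77 to 10.3), against 0.0546% (0.0250 to 0.104) and 1.05%. Sense units were thus found in more hosts than antisense units in every library. In D. eugracilis the interval overlapped that of antisense units, 3.19% (2.35 to 4.22). Per Mb of long intron there were 29.2, 14.0 and 22.4, against 8.99, 12.2 and 15.8 per Mb of introns of 500 to 1000 nt, where between 6 and 9 introns per species held one. These rates are not like for like. The 100 nt kept from both ends take a larger part of a shorter intron, and islands nearer an end are given further on. Sense and antisense units occurred together in 11, 2 and 4 members. With a minimum of 20 pairs for a unit, the shares with a sense unit were 5.27%, 3.26% and 4.65%. Those with an antisense unit were 2.29%, 2.65% and 2.62%.

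Sense units held fewer pairs than antisense units. Their median was 21.5 pairs (19 to 27) for D. pseudoobscura, 24 (19 to 36) for D. eugracilis and 20 (16 to 23) for D. bifasciata, against 91 (35 to 206), 104 (52 to 340) and 121 (50 to 192) pairs for antisense units. An own intron was found in 2.63% (1.14 to 5.12), 14.9% (8.20 to 24.2) and 8.14% (4.90 to 12.6) of them. Spliced pairs joined 53.0% (47.2 to 58.7), 56.3% (45.3 to 66.9) and 49.8% (43.0 to 56.6) to bases outside the host, and the rest showed no such join. Among hosts that were at most 50% unspliced and not crossed by another intron, as described further on, the sense unit with most pairs lay in D. eugracilis, at 10912897 to 10916466 of NW_024573812.1 in LOC108114897. It held 3056 pairs beside 11 spliced pairs of the host and overlapped LOC108114901. Another lay in the intron of LOC108107330 (NW_024572605.1, 1421821 to 1423687), with 2254 pairs in a unit over LOC108107328 beside 33 spliced pairs. In D. pseudoobscura the intron at 498360 to 509515 of utg000040l, 11156 nt long with 33 spliced pairs, held a sense unit of 2647 pairs and 7836 nt. In D. bifasciata the longest member of all (CM019043.1, 27484163 to 27504157) had 214 spliced pairs and a sense unit of 663 pairs that ran over 18763 of its 19995 nt. At 9069172 to 9072044 of the same chromosome a host of 2873 nt with 19 spliced pairs held 1821 pairs in a unit with 1 intron of its own.

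The gene table of D. eugracilis, which did not enter the search for units, listed a gene wholly inside 174 of the 1308 placed members (13.3%, 11.5 to 15.3). These were 195 entries of protein-coding genes, 22 of small nucleolar RNAs, 8 of tRNAs, 4 of long noncoding RNAs, 2 of small nuclear RNAs and 1 of a pseudogene, with a gene inside 2 overlapping members counted in each. Of the 38 placed hosts of antisense units 34 had an annotated gene inside (89.5%, 75.2 to 97.1), as had 20 of 67 hosts of sense units (29.9%, 19.3 to 42.3), against 10.05% (8.41 to 11.9) of the 1204 placed members without units. Of the units themselves, 41 of 49 antisense and 18 of 78 sense units overlapped such a gene. Antisense units therefore mostly overlapped annotated genes inside the host, and sense units mostly did not. The table gives no strand, so the direction of these genes was not compared with that of the units. The 2 kinds of unit were not matched for length or pairs. Conversely, 111 of the 158 members with a protein-coding gene inside (70.3%, 62.5 to 77.2) showed no nested unit at this depth in the ovary library. Islands at an edge and islands with reads of both strands are not counted as units.

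The QuantSeq library of D. eugracilis gave reads that the choice of members had not used. A QuantSeq read crossed 275 member junctions, and in 272 of them (98.9%, 96.8 to 99.8) the major strand was the same as in the polyA library. At least 10 antisense QuantSeq reads lay inside 43 of the 47 members with an antisense unit (91.5%, 79.6 to 97.6) and inside 30 of the 1426 others (2.10%, 1.42 to 2.99). The medians were 159 reads (69 to 276) and 0 reads. For sense reads the counts were 54 of 75 members with a sense unit (72.0%, 60.4 to 81.8) and 206 of 1398 others (14.7%, 12.9 to 16.7). Antisense 3′ end reads were thus seen in nearly every host of an antisense unit. For the other two species the direction of the strand rests on the use of the same kit and processing. In LOC108102989, the host described above, 2847 antisense QuantSeq reads stood beside 10 sense reads, and in LOC108118465 940 stood beside 0. Both libraries come from the same species, and whether they share flies is not given in the sources used here.

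Most members had no unspliced pair over either end. Pairs wholly inside an intron do not enter this measure, so the absence of unspliced RNA is not shown. The unspliced share of an intron was the mean number of sense pairs that ran over its 2 ends, by at least 10 nt on both sides, set against the pairs spliced across it. No such pair was found at either end of 67.9% of members for D. pseudoobscura (65.8 to 69.8), 80.9% for D. eugracilis (78.8 to 82.9) and 73.7% for D. bifasciata (71.7 to 75.6), against 82.3% (81.7 to 82.8), 85.8% (85.1 to 86.4) and 84.5% (84.0 to 85.1) of the shorter introns and 80.6%, 85.3% and 83.3% of all constitutive introns. Long introns thus had an unspliced pair over an end more often than shorter ones in each library. The share is a mean over 2 ends, so reads at 1 end alone can make it high. A high share therefore does not show that the whole intron was kept. Members over 50% unspliced numbered 38 for D. pseudoobscura (1.74%, 1.23 to 2.38), 17 for D. eugracilis (1.15%, 0.674 to 1.84) and 40 for D. bifasciata (1.94%, 1.39 to 2.63), against 0.325%, 0.411% and 0.722% of the shorter introns and 0.492%, 0.491% and 0.858% of all constitutive introns. Among introns at or below 50%, the pooled unspliced share was 1.10% for D. pseudoobscura, 0.407% for D. eugracilis and 1.28% for D. bifasciata, against 0.487%, 0.316% and 0.456% for shorter introns.

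Summed over members at or below 50%, more unspliced pairs lay at the 5′ end in each library. Counted per intron, the interval for D. bifasciata included 50%. Among members at or below 50% whose ends differed, the 5′ end had more unspliced pairs in 58.1% for D. pseudoobscura (54.1 to 61.98), 67.2% for D. eugracilis (61.0 to 72.9) and 54.3% for D. bifasciata (49.7 to 58.7), against 46.5% (44.5 to 48.5), 46.6% (44.1 to 49.2) and 42.5% (40.4 to 44.6) of shorter introns. In sums, 1453, 754 and 1853 pairs ran over the 5′ ends of members and 1029, 235 and 1138 over the 3′ ends. Shorter introns had the opposite order, with 4791, 3705 and 6257 pairs at 5′ ends and 5206, 5807 and 8686 at 3′ ends. Among members with 100 or more pairs the highest unspliced share was 51.4% in D. pseudoobscura, in the intron at 280552 to 281879 of utg000060l, where 361 pairs ran over the 5′ end and 1 over the 3′ end. In D. eugracilis it was 7.58% (NW_024573369.1, 2081157 to 2082436, in LOC121530321), with 80 pairs at the 5′ end and 0 at the 3′ end. In D. bifasciata it was 26.6% (CM019041.1, 30673676 to 30675036), with 242 pairs and 2 pairs. In these 3 the unspliced reads stood at the 5′ end alone or nearly so, and each had an island of sense reads at an edge. Not all introns named by this measure were alike. The next in D. pseudoobscura (utg000091l, 189260 to 191133) had 79 pairs at the 5′ end and 126 at the 3′ end, and the next in D. bifasciata (WIOZ01000153.1, 5067 to 16323) had 3 and 27.

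Some members lay at places where introns of 1 strand overlap in a staggered way. Another intron of 10 or more pairs on the same strand began inside and ended beyond, or the reverse, in 30 members of D. pseudoobscura (1.37%), 11 of D. eugracilis (0.747%) and 62 of D. bifasciata (3.00%), against 0.0184%, 0.0575% and 0.759% of the shorter introns. Of the members over 50% unspliced, 19 of 38, 6 of 17 and 24 of 40 were crossed in this way. These members weighed heavily on sums over reads. In D. eugracilis the member at 22512 to 27673 of NW_024572672.1 had 17 spliced pairs. Inside it lay 175745 sense pairs, which is 62.9% of all sense pairs inside members of that library. Its unspliced share of 99.5% came from 5 pairs over the 5′ end and 7035 over the 3′ end. In D. bifasciata 4 members of the unplaced sequence WIOZ01000157.1 overlapped in a staggered row, and a sense unit of 515 nt with 24349 pairs was counted in 2 of them. The member at 501 to 15686 of the same sequence held 10991 antisense pairs in 2 units, beside 19 spliced pairs. Its unspliced share of 99.8% came from 1 end, with 1 pair over the 5′ end and 24135 over the 3′ end. The sense unit of 515 nt, at 15365 to 15879, lies across that 3′ end, so the share does not show that the intron was kept. In D. pseudoobscura 2 crossing members of utg000156l, at 22772 to 34649 and 31544 to 41786, held 1878 and 2228 pairs in sense units, of which 3 units were the same. Without the crossed members the antisense share inside was 27.8% for D. pseudoobscura, 40.1% for D. eugracilis and 40.5% for D. bifasciata, and the share with a nested antisense unit was 2.79%, 2.94% and 3.00%. The share with a nested sense unit was 8.59%, 4.79% and 7.74% without them, the last outside the interval of the value over all members. What these staggered places are was not tested.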

How the data were processed

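Ovary polyA RNA of 3 species was read in 1 library each, with 1 QuantSeq library of D. eugracilis. The authors, as their labels and methods state, trimmed adapters and filtered reads with the FASTX-Toolkit, mapped them with STAR 2.7.3a and handled the alignments with SAMtools 1.10 and bedtools 2.28.0. The assemblies were a Nanopore assembly for D. pseudoobscura, ASM1815383v1 for D. eugracilis and UCBerk_Dbif_1.0 for D. bifasciata. The deposited files list genome-unique alignments with their blocks. Their only measured column, a mapping score, was 255 in every line of the polyA files as deposited by the authors and served as no level. For D. bifasciata the description label gives D. eugracilis, whereas title, organism and contigs give D. bifasciata, which was followed. Coordinates are 1-based and on these assemblies.

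Pairs were built by read name (5850, 3987 and 5084 names had 1 alignment) and counted once per intron with Python 3.11.15, numpy 2.4.6, pandas 2.3.3 and scipy 1.17.1. Intervals are exact 95% binomial intervals (Clopper-Pearson for shares, order statistics for medians). The libraries held between 6551749 and 7082759 pairs, and no replicate shows the spread between flies. The alternatives changed the pair minimum, the sharing of ends, duplicates, strand, length limit, margin, the definition of units, the cover of unspliced alignments and the neighbour window. Because each group had 1 library, no test between species or p-value was made. The search for introns and units was tested on simulated data. Gene table stretches of D. eugracilis (RefSeq, ASM1815383v1) were placed on a contig when, among at least 30 of its introns of 3 or more pairs, 90% or more lay inside single genes of the stretch, at least 10 points ahead of any other. Contigs of 40 of 40 neighbouring placed stretches rose in number. The members, lists and measures were chosen with earlier results of these data known. Introns were named by a rule, namely per species the 5 with most pairs, the 3 longest, the 5 and 4 with most pairs in antisense and sense units, and the 3 most unspliced with 100 or more pairs, and LOC108116869 was named after its count was seen. Lists of piRNA pathway genes and of cell type markers could not be matched and were not used here. No genome sequence was used, so no sequences are shown.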

Additional observations from a re-analysis of the deposited data

Results flagged for a closer look

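One measure pointed in different directions between the species. Over all long constitutive introns the pooled unspliced share at the ends was 2.90% in D. pseudoobscura against 9.51% for shorter introns, a difference of -6.60 percentage points. In the D. eugracilis library it was 10.6% against 6.25%, a difference of 4.32 points, and in that of D. bifasciata 22.1% against 8.24%, a difference of 13.9 points. The difference between the species was not tested, since each had 1 library. The pooled share adds reads over introns, and 38, 17 and 40 members were more than 50% unspliced. In D. pseudoobscura 53 shorter introns were also more than 50% unspliced. Without the introns over 50%, its shorter share went from 9.51% to 0.487% and its long share from 2.90% to 1.10%. Among introns at or below 50% the long introns had the higher share in each library, with 1.10% against 0.487%, 0.407% against 0.316% and 1.28% against 0.456%.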

How the results depend on the processing

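The main values were recomputed under 15 alternatives, 13 listed at the start and 2 added after the data had been seen. Of the 234 values so obtained, 143 stayed within the interval of the value reported (counts of introns within 1.5 times) and 91 did not. In the values that follow, D. pseudoobscura comes before D. eugracilis and D. bifasciata where 3 are given. With a minimum of 20 pairs the antisense share inside was 18.8%, 14.6% and 35.7%, the share with a sense unit 10.9%, 7.33% and 11.02%, the pooled unspliced share 2.19%, 2.63% and 10.6%, and the share with an upstream neighbour 53.4%, 47.2% and 52.2%. The same minimum gave D. eugracilis 969 members, 2.27% with an antisense unit and 71.2% with a downstream neighbour, and D. bifasciata a median length of 2799 nt and 74.4% with a downstream neighbour. With a minimum of 5 pairs the antisense share was 22.2%, 40.7% and 29.6% and the pooled unspliced share 10.6%, 14.7% and 44.6%, while D. eugracilis had 55.6% and 77.8% of members with an upstream and a downstream neighbour and D. bifasciata had 60.6% with an upstream neighbour and 3.98% with an antisense unit. With ends within 10 nt counted as shared the pooled unspliced share was 2.51% in D. pseudoobscura and 22.5% in D. bifasciata. With identical pairs counted once the antisense share was 25.4%, 18.6% and 30.2%, the pooled unspliced share 3.01%, 5.33% and 9.13%, and the share with a sense unit in D. bifasciata 7.32%. With pairs of both strands counted towards the minimum the pooled unspliced share of D. eugracilis was 11.4%. A lower length limit of 2000 nt left 1417, 885 and 1348 members with median lengths of 4897, 4456 and 4887.5 nt, of which 3.60%, 4.63% and 3.93% had an antisense unit and 12.5%, 6.89% and 10.8% a sense unit. Under that limit the pooled unspliced share was 3.59%, 16.5% and 33.4%, and the antisense share 26.7% in D. pseudoobscura and 9.96% in D. eugracilis. Without a margin inside the intron ends the antisense share was 23.9%, 9.97% and 18.5%. Joining units over 300 nt gave 11.8% of D. pseudoobscura members with a sense unit, and a demand of 95% of the pairs from 1 strand gave 7.65% with a sense and 1.83% with an antisense unit there. Units of 20 or more pairs left 5.27%, 3.26% and 4.65% with a sense unit. Unspliced alignments over 20 nt on both sides gave pooled shares of 2.22%, 8.33% and 20.9%. Neighbours within 1000 nt were found upstream of 53.4%, 44.9% and 51.4% and downstream of 73.2%, 67.96% and 70.1%, and those within 5000 nt upstream of 67.2%, 61.3% and 66.9% and downstream of 84.4%, 80.7% and 82.3%. With the members over 50% unspliced left out, which was added after seeing the data, the antisense share was 31.0%, 45.0% and 26.8% and the pooled unspliced share 1.10%, 0.407% and 1.28%. With the crossed members left out, also added then, the antisense share was 27.8%, 40.1% and 40.5%, the pooled unspliced share 1.71%, 3.83% and 1.88%, and the share with a sense unit in D. bifasciata 7.74%. Shares of reads thus depend on a few members, and the cause was not tested.

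No paired analysis was possible because each group had 1 library, and no replicate was left out. At these depths competing introns and nested transcripts of under 10 pairs were not called, and their absence is not shown. Only reads that map to a single place were analysed, so repeats inside introns are seen in part.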

Other observations

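Islands of sense reads that lay within 100 nt of an intron end were counted apart from nested units. They were found in 5.04% of members for D. pseudoobscura (4.16 to 6.04), 3.39% for D. eugracilis (2.53 to 4.45) and 4.41% for D. bifasciata (3.56 to 5.39), against 6.61% (5.09 to 8.41), 2.68% (1.69 to 4.03) and 5.73% (4.21 to 7.60) of the constitutive introns of 500 to 1000 nt. Per Mb there were 10.8, 8.52 and 10.1 such islands in long introns, against 92.9, 38.4 and 78.9 in those of 500 to 1000 nt. Since every intron has only its own ends, the number per Mb falls with length by definition, and the shares per intron are the closer comparison. Their intervals overlapped in each species.

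The place of diffuse sense reads along the intron could be followed in members without islands that held 10 or more sense pairs and were at most 50% unspliced. In D. pseudoobscura 404 introns qualified, and on average 56.0% of their sense pairs lay in the 5′ part up to the middle. With the intron cut into 10 equal parts from its 5′ end, the share was 12.3% in part 2 and 8.74% in part 9, and the outermost parts are reduced because reads had to keep clear of the ends. Most sense pairs lay before the middle in 249 of the 404 introns (61.6%, 56.7 to 66.4). In D. bifasciata 167 introns qualified, with 52.6% of pairs before the middle on average and 82 introns (49.1%, 41.3 to 56.9) with most of theirs there. In D. eugracilis 28 introns qualified, too few to show a slope, with 46.5% before the middle.

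In D. eugracilis 9 of the 1316 members without nested units or inner introns held 100 or more QuantSeq reads inside. Such reads mark 3′ ends or inner stretches rich in A, and which of these they were was not tested.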
